A study of Mus musculus with 6 samples.

Results

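A set of 10 genes of the intestinal goblet cell was followed in colon epithelial cells of Apc Min/+ mice given atorvastatin or vehicle: the fate factors Atoh1 and Spdef, the folding factor Agr2, the secreted mucus proteins Muc2, Fcgbp, Clca1, Zg16 and Tff3, and the goblet cell genes Spink4 and Bcas1. They were taken by gene symbol, and all 10 were found, each as 1 row, among the 52550 Ensembl identifiers of the series. All 6 libraries came from male mice of 5 to 6 weeks that carry the Min mutation in 1 copy of the tumour suppressor gene Apc, so the controls share the genotype with the treated mice and no wild-type group was analysed here. The 3 control libraries came from mice gavaged on alternate days with vehicle, 2% Tween 80, and the 3 atorvastatin libraries from mice gavaged at the same interval with 20 mg/kg of the statin, an inhibitor of cholesterol synthesis. The labels give neither the length of treatment nor whether tumour tissue was kept in the isolate. They also do not tie libraries to animals, so p-values measure the spread between these libraries, which may be technical.

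Goblet cells are the mucus-secreting cells of the gut lining, and in the colon their product forms the layer that keeps bacteria away from the epithelium. A progenitor that escapes Notch signalling and expresses ATOH1, a basic helix-loop-helix factor, enters the secretory lineage, and SPDEF, an ETS family factor, drives its maturation into a goblet cell. The mucin MUC2 is then folded in the endoplasmic reticulum with the help of AGR2, heavily O-glycosylated in the Golgi and released to expand into a gel in which FCGBP, CLCA1, ZG16 and TFF3 are further components.

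The values were FPKM, sequenced fragments scaled by gene length and by library size, a level per length that allows genes of a library to be compared, as far as the gene lengths used by the authors hold. FPKM totals per library ran from 407857 to 430832, and each library listed between 11456 and 11655 genes that reached 1 FPKM. The sequencing depth is unknown. Epithelial genes were high in every library, with a summed level of 5852 to 5971 FPKM in control and 5574 to 5729 FPKM with atorvastatin over 8 genes that included Epcam and Krt8. The 12 stromal and muscle markers summed to 1.85 to 2.92 FPKM over all libraries, and Col1a1 reached at most 0.136 FPKM. Apc, whose Min mutation changes the sequence and is not read by a gene level, was listed at 10.6, 4.95 and 10.1 FPKM in the controls and at 5.24, 5.65 and 5.41 FPKM in the treated libraries.

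The mucus genes did not change detectably with atorvastatin. None of the 10 passed limma's test over all 11644 tested genes at a Benjamini-Hochberg adjusted p under 0.05, where 0.404% of all genes passed, and 2, Spink4 and Fcgbp, had an unadjusted p under 0.05, which 12.0% of all genes had. The members' log2 fold changes ran from -0.13 to 0.51 with a median of 0.13, against a median of 0.02 over all tested genes, and 7 were above 0, as were 57.3% of all genes. All 10 members passed the filter on low values, which asked for 1 FPKM in at least 3 libraries. In bulk epithelium a different number of goblet cells and a different amount of an RNA per goblet cell cannot be told apart. What the libraries did show was a spread within each group. In the same 3 libraries, from both groups, 5 members had their 3 lowest values and Clca1 its 3 highest. Some margins were small, such as 21.3 against 21.8 FPKM for Atoh1 in atorvastatin replicate 3 and control replicate 3.

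**Figure D1:**
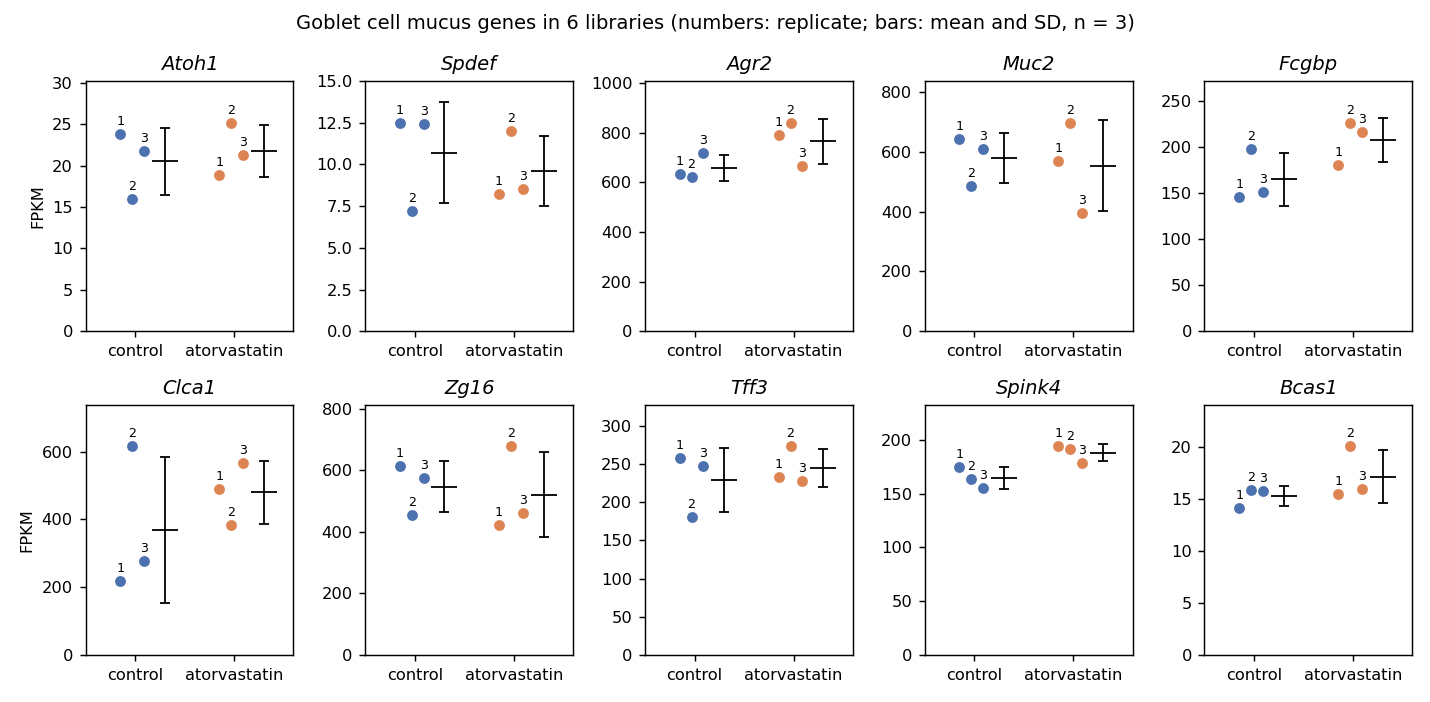
FPKM of each of the 10 mucus genes (vertical axes, linear, from 0) in the 3 control (blue) and 3 atorvastatin (orange) libraries, each numbered by replicate, with the group mean and SD as bars. The groups overlap for every gene but Spink4, and control replicate 2 lies apart from the other controls for Clca1, at 615 against 217 and 276 FPKM.

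Atoh1, the factor that opens the secretory lineage (ENSMUSG00000073043, chromosome 6, 64729125 to 64731245, plus strand), was listed at 23.8, 16.0 and 21.8 FPKM in control replicates 1, 2 and 3 and at 18.9, 25.2 and 21.3 FPKM in atorvastatin replicates 1, 2 and 3. The lowest value was a control and the highest an atorvastatin library, and the groups overlapped. The group means of Atoh1 were 20.5 ± 4.04 and 21.8 ± 3.18 FPKM (SD, n = 3 each), a log2 fold change on the log2(FPKM + 1) scale of 0.09 with a 95% interval of -0.29 to 0.47. Spdef (ENSMUSG00000024215, chromosome 17, 27714352 to 27728955, minus strand) was the least abundant member, at 12.5, 7.21 and 12.4 FPKM in the controls and at 8.20, 12.0 and 8.55 FPKM in the treated libraries. In Spdef each group held values of 12.0 to 12.5 FPKM beside values of 7.21 to 8.55 FPKM, and the difference of the groups was -0.13 on the log2 scale (interval -0.67 to 0.42). The limma adjusted p was 0.882 for Atoh1 and 0.885 for Spdef.

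The sequence before the start of a gene is a place where such factors can act, though not the only place. The 250 bases before the RefSeq start (GRCm38.p6) are shown for both factor genes and for the gel components Muc2 and Fcgbp. Muc2, Atoh1 and Spdef had the same 3 lowest libraries and Fcgbp did not, which guided this choice. A link between the letters and that order of libraries was not tested. The RefSeq promoter table held 5 of the 10 members, the fifth being Agr2. Each is written 5′ to 3′ on the gene's strand, with matches to 3 motifs, searched on both strands, in capitals. The first motif is CAGCTG, an E-box that the ATOH1 protein is known to bind. The second is GGAT, the core that the SPDEF protein prefers, unlike most members of the ETS family. The third is TATAA, the core of the TATA box. A match on the other strand appears as its reverse complement.
Muc2 (chr7:141690090-141690339, plus strand): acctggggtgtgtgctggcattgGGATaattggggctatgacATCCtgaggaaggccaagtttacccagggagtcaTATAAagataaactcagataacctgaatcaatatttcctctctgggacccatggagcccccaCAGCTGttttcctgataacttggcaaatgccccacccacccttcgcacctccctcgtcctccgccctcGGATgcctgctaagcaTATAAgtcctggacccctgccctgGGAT
Fcgbp (chr7:28070986-28071235, plus strand): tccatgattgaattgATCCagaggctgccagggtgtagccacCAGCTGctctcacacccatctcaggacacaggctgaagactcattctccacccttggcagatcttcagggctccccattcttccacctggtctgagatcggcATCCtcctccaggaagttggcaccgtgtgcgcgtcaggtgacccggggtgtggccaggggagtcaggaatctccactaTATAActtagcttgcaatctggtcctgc
Atoh1 (chr6:64728875-64729124, plus strand): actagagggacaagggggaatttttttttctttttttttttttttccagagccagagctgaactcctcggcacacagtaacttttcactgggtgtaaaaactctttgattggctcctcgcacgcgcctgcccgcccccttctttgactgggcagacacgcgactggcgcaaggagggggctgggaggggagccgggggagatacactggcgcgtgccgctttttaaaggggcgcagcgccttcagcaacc
Spdef (chr17:27728952-27729201, minus strand): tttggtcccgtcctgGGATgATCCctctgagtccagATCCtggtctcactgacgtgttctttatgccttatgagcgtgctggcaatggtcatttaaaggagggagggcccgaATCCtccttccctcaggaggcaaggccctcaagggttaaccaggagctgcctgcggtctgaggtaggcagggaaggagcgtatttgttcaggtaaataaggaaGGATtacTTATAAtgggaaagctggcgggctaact
CAGCTG, which overlaps the general E-box CANNTG, was found in Muc2, beginning 112 bases before the start, and in Fcgbp, 208 bases before it, and was not among the letters of the windows of Atoh1, Spdef and Agr2. Of 32851 RefSeq promoter windows of this length, 13.0% held this E-box. The core GGAT is common, at 74.1% of windows, and was found 4 times in Muc2, 2 times in Fcgbp, 5 times in Spdef, 2 times in Agr2 and 0 times in Atoh1. TATAA, held by 22.8% of windows, began 28 bases before the start in Muc2 and Fcgbp and 27 bases before it in Spdef. In Spdef a match on the other strand overlapped it, beginning 28 bases before the start. Muc2 held another TATAA 174 bases before the start. A match describes these letters only, and it does not show that a factor binds there.

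Agr2, a protein disulfide isomerase of the endoplasmic reticulum that MUC2 needs for folding (ENSMUSG00000020581, chromosome 12, 35992907 to 36004087, plus strand), had the highest group means of all members. It was listed at 633, 622 and 719.7 FPKM in the controls and at 792, 841 and 665 FPKM in the treated libraries. The lowest atorvastatin library lay below the highest control, so the groups overlapped. Its means were 658 ± 53.4 and 766 ± 90.6 FPKM, and the log2 fold change was 0.21 with an interval of -0.03 to 0.45 (limma adjusted p = 0.471).

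Muc2, the gel-forming mucin itself (ENSMUSG00000025515, chromosome 7, 141690340 to 141754693, plus strand), was listed at 645, 487 and 610.4 FPKM in the controls and at 569, 698 and 397 FPKM in the treated libraries. The highest and the lowest of the 6 values were both atorvastatin libraries. The mean was 581 ± 83.1 FPKM in control and 555 ± 151 FPKM with atorvastatin, a log2 fold change of -0.09 (interval -0.61 to 0.42, limma adjusted p = 0.911). Muc2 was among the 77 most abundant of all identifiers in every library. The interval spans ratios of 0.657 to 1.34 on the FPKM + 1 scale, and a change of Muc2 inside it was not detectable with these libraries. Without atorvastatin replicate 3 the log2 fold change of Muc2 was 0.13.

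Zg16, a lectin-like protein that binds the cell wall of Gram-positive bacteria (ENSMUSG00000049350, chromosome 7, 127050156 to 127087328, minus strand), lay at a similar level, at 613, 455 and 575 FPKM in the controls and at 423, 678 and 462 FPKM in the treated libraries. As with Muc2, the highest and the lowest value were both atorvastatin libraries. The Zg16 log2 fold change was -0.09 with an interval of -0.56 to 0.37 (limma adjusted p = 0.904), and it was 0.04 without atorvastatin replicate 1. The ratio of Zg16 to Muc2 ran from 0.743 to 1.16 over the 6 libraries. Tff3, a trefoil peptide that aids epithelial repair (ENSMUSG00000024029, chromosome 17, 31125306 to 31129646, minus strand), was listed at 258, 181 and 247 FPKM in the controls and at 233, 273 and 228 FPKM in the treated libraries. For Tff3 the 3 atorvastatin values lay inside or just above the control range, with a log2 fold change of 0.11 (interval -0.23 to 0.45, limma adjusted p = 0.827), which was -0.05 without control replicate 2.

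Fcgbp, a large mucus protein with repeated von Willebrand factor domains (ENSMUSG00000047730, chromosome 7, 28071236 to 28120862, plus strand), was listed at 146, 198 and 150.4 FPKM in the controls and at 180.4, 226 and 216 FPKM in the treated libraries. A single control, replicate 2, overlapped the atorvastatin libraries. The means were 165 ± 28.6 and 208 ± 23.9 FPKM, a log2 fold change of 0.34 with an interval of 0.02 to 0.66. Its limma adjusted p was 0.393 and fell no lower than 0.175 in any alternative, so this difference did not pass.

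Clca1, a secreted metalloprotease that processes MUC2 in the gel (ENSMUSG00000028255, chromosome 3, 145003817 to 145032776, minus strand), had the widest spread of the members. It was listed at 217, 615 and 276 FPKM in the controls and at 488, 383 and 567 FPKM in the treated libraries. Control replicate 2 was the highest of all 6 libraries and the other controls were the lowest. The control SD of 215 FPKM was 58.3% of the control mean of 369 FPKM, and the log2 fold change of 0.51 had an interval of -0.42 to 1.43 (limma adjusted p = 0.687). Without control replicate 2 the log2 fold change of Clca1 was 0.95 (limma adjusted p = 0.167), and without control replicate 1 it was 0.20 (limma adjusted p = 0.917). Clca1 belongs to a family of similar genes, so reads shared with relatives make its own level less certain.

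Spink4, of the Kazal-type serine protease inhibitor family (ENSMUSG00000028415, chromosome 4, 40920052 to 40931395, plus strand), was the single member whose groups did not overlap. It was listed at 175, 164 and 155 FPKM in the controls and at 194, 192 and 179 FPKM in the treated libraries. It made up 1 of the 10 members, where 18.1% of all tested genes had groups that did not overlap. The means were 165 and 188 FPKM, a ratio of 1.14, and the log2 fold change of 0.19 (interval 0.04 to 0.34) did not pass over all genes (limma adjusted p = 0.309). Bcas1 (ENSMUSG00000013523, chromosome 2, 170346991 to 170427845, minus strand) was listed at 14.2, 15.9 and 15.8 FPKM in the controls and at 15.5, 20.1 and 16.0 FPKM in the treated libraries. Atorvastatin replicate 2 was high and the other atorvastatin libraries lay in or beside the control range (log2 fold change 0.15, interval -0.09 to 0.39, limma adjusted p = 0.629). The 2 antisense genes annotated across Bcas1 were listed at 0.313 FPKM or less, so they added little to it even if strand was not used in counting.

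**Figure D2:**
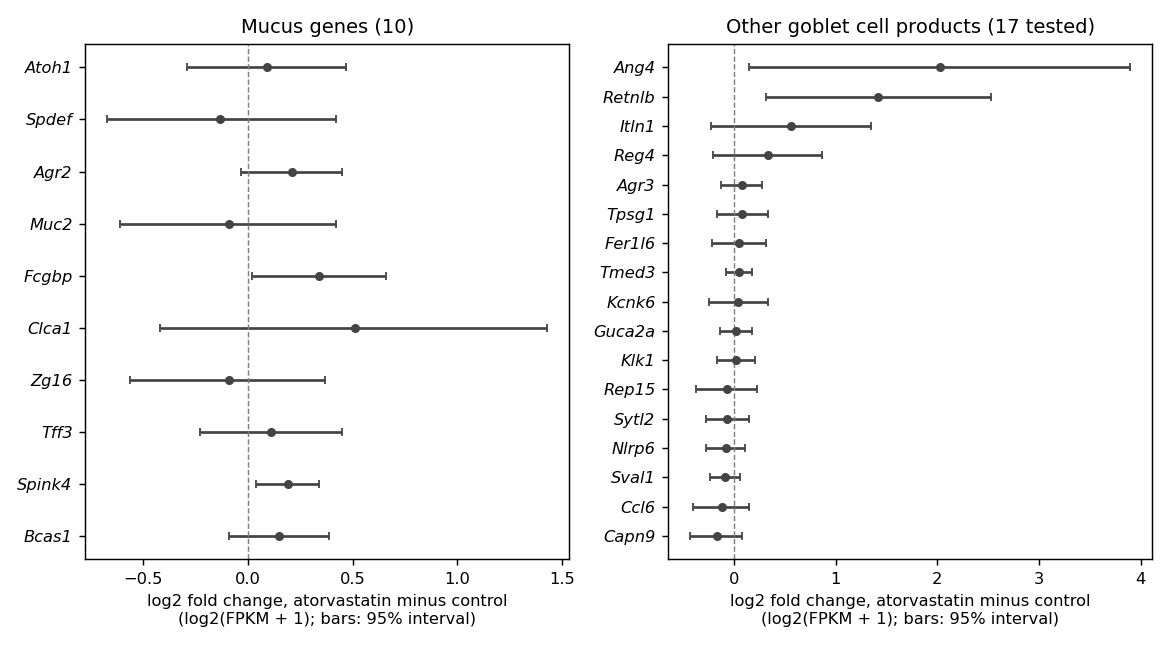
Log2 fold change of atorvastatin minus control on the log2(FPKM + 1) scale (horizontal axes) with its 95% interval from limma, for the 10 mucus genes (left) and the 17 tested genes of the list of other goblet cell products (right, wider axis). The intervals of Spink4, Fcgbp, Ang4 and Retnlb lie above 0, and none of the genes shown passed after adjustment over all tested genes.

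For 5 members the 3 lowest libraries were the same, and these came from both groups. For Muc2, Zg16, Tff3, Spdef and Atoh1 the 3 lowest libraries were control replicate 2 and atorvastatin replicates 1 and 3, and the 3 highest were control replicates 1 and 3 and atorvastatin replicate 2. Clca1 had the opposite split, with those same 3 libraries highest. The split was thin in places. On the log2 scale, control replicate 2 lay below the gene's mean in all 5 (-0.20 to -0.41). Atorvastatin replicate 1 lay near it for Muc2 (0.03) and Tff3 (-0.01), and atorvastatin replicate 3 for Tff3 (-0.04) and Atoh1 (0.02). The ratio of Clca1 to Muc2 was 0.336, 1.26 and 0.452 in the controls and 0.856, 0.549 and 1.43 in the atorvastatin libraries, a range of 4.25 times across the series. Against this, the 10 members together summed to 2738, 2761 and 2783 FPKM in the controls. In the treated libraries they summed to 2922, 3347 and 2760 FPKM. Over all libraries that was 0.641% to 0.821% of the FPKM total, of which mitochondrial genes made up 30.3% to 33.2%. The members were 0.959% to 1.18% of the remainder. Atorvastatin replicate 2 held the highest value of 7 members. The 6 libraries were ordered here by these same genes, so the shared split is a description without a test. It was not particular to mucus genes, since Apc, Car4, Muc13 and Xbp1 had the same 3 lowest libraries as Muc2. The share of all tested genes with this split was not counted.

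The spread within groups was wide for these genes. The residual SD of a gene is the SD of its log2 values around the group means. It was 0.33 for Muc2, 0.30 for Zg16, 0.35 for Spdef and 0.59 for Clca1, against a median of 0.09 over all tested genes, and it exceeded that median in 9 of the 10 members. Spink4, at 0.08, was the exception. The residual SD of Clca1 was larger than that of 99.3% of tested genes.

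**Figure D3:**
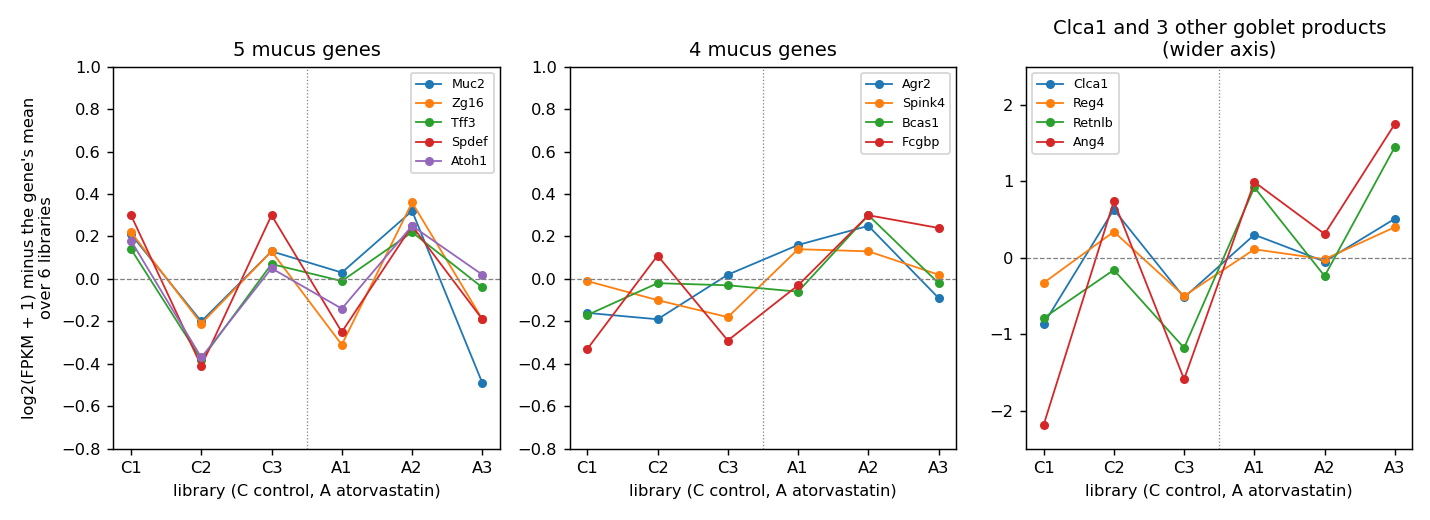
Level of each gene in each library as log2(FPKM + 1) minus the gene's own mean over the 6 libraries (vertical axes; the right panel has a wider axis), for control (C1 to C3) and atorvastatin (A1 to A3) libraries; lines join values of 1 gene and imply no order. Muc2, Zg16, Tff3, Spdef and Atoh1 dip in C2 (-0.20 to -0.41). In C2 Clca1, Reg4 and Ang4 lie above their means, and Retnlb lies below its mean, at -0.16.

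Several other secreted goblet cell products had the same 3 highest libraries as Clca1. The list held 22 genes, of which 17 were tested, with a median log2 fold change of 0.04. None passed limma's adjusted test in either direction. An unadjusted p under 0.05 was seen in 2 of them, Ang4 and Retnlb, and in 12.0% of all tested genes. Ang4, an antimicrobial ribonuclease of the angiogenin family, was listed at 10.3, 84.9 and 16.1 FPKM in the controls and at 101, 62.7 and 172 FPKM in the treated libraries. Retnlb, a resistin-like protein that acts on Gram-negative bacteria, was listed at 22.4, 35.3 and 16.8 FPKM in the controls and at 75.5, 33.3 and 109 FPKM in the treated libraries. In both genes the 3 highest libraries were control replicate 2 and atorvastatin replicates 1 and 3, and the groups overlapped. The log2 fold changes were 2.03 (interval 0.15 to 3.90) for Ang4 and 1.42 (interval 0.31 to 2.53) for Retnlb, with limma adjusted p of 0.379 and 0.302. With a library left out the value of Ang4 ran from 1.44 without control replicate 1 (limma adjusted p = 0.647) to 2.90 without control replicate 2 (limma adjusted p = 0.115). Ang4 has close relatives in the genome, which makes its own level uncertain. Reg4, a C-type lectin of deep crypt secretory cells, had the same split at 161 to 287 FPKM in control and 225 to 299 FPKM with atorvastatin, and the intelectin gene Itln1 did so at 0.710 to 2.98 FPKM. Klk1 and Guca2a kept a narrow range. Klk1, a kallikrein protease gene, stood at 562 to 581 FPKM in control and 510.4 to 615 FPKM with atorvastatin, and Guca2a, the guanylin precursor gene, at 876 to 973 and 916 to 1009 FPKM. Guca2a, Rep15, Sytl2 and Sval1, of the same list, had the same 3 lowest libraries as Muc2.

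No factor that acts around Atoh1 and Spdef passed the test. Of 18 genes on the list of secretory fate factors, 16 were tested and none passed limma's adjusted test, nor had any an unadjusted p under 0.05, with fold changes from -0.04 to 0.22 on the log2 scale. Klf4, a factor of goblet cell terminal differentiation, was at 224 to 258 FPKM in control and 235 to 265 FPKM with atorvastatin, and Hes1, the Notch target that represses Atoh1, at 52.2 to 54.1 and 47.8 to 55.5 FPKM. The Notch ligand gene Jag1 had the smallest p of the list, with means of 4.67 ± 0.189 and 5.19 ± 0.544 FPKM (limma adjusted p = 0.596). Foxa2, a forkhead factor, had 5.13 ± 1.24 and 6.07 ± 0.546 FPKM, and Ern2, the goblet cell form of the unfolded protein sensor IRE1, 28.7 ± 1.18 and 30.6 ± 3.32 FPKM, neither past the test.

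The enzymes that fold and glycosylate the mucin gave no called gene either. Of 29 O-glycosylation genes 27 were tested, with a median log2 fold change of 0.00, 1 higher and 1 lower at an unadjusted p under 0.05 and none past limma's adjusted test. Those were the sialyltransferase genes St3gal4, at 61.9, 72.7 and 60.7 FPKM in the controls and at 73.4, 78.3 and 78.0 FPKM in the treated libraries, and St3gal3, at 13.0, 17.1 and 15.3 against 10.6, 12.5 and 9.63 FPKM. Their groups did not overlap, as in 18.1% of all tested genes. An unadjusted p under 0.05 was held by 12.0% of all tested genes. The differences of St3gal4 and St3gal3 had opposite signs, 0.24 and -0.44 on the log2 scale (limma adjusted p = 0.299 and 0.208). C1galt1, the gene of a core enzyme that extends the mucin sugar, stood at 35.0 to 36.1 FPKM in control and 32.0 to 39.8 FPKM with atorvastatin. C1galt1c1, the gene of its chaperone, stood at 33.6 to 34.6 and 31.7 to 36.6 FPKM. Among 22 secretory pathway folding genes, all tested, 13 had negative values and none passed, with 2 below an unadjusted p of 0.05: the chaperone gene Dnajc3, at 23.4 ± 0.395 and 20.9 ± 1.21 FPKM, and Creld2, at 16.6 ± 1.97 and 13.5 ± 1.63 FPKM. Among 5 tested membrane-bound mucins of a list of 10, none passed and 4 had negative values. Muc1 had the smallest p, at 2.27, 2.18 and 2.57 FPKM in the controls and at 1.72, 1.66 and 1.73 FPKM in the treated libraries (log2 fold change -0.30, limma adjusted p = 0.140), and Muc13 stood at 516 ± 14.2 and 506 ± 17.7 FPKM.

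Among markers of the other cells of the isolate, Gcg and Mcm6 passed. Of 9 enteroendocrine markers 6 were tested, all with positive values, 4 with an unadjusted p under 0.05, which 12.0% of all genes had. Gcg, the proglucagon gene of a sister secretory lineage, passed (log2 fold change 0.69, limma adjusted p = 0.0402). That call was lost without any of control replicates 1, 2 and 3 and atorvastatin replicates 1 and 2, at limma adjusted p of 0.167, 0.0984, 0.0728, 0.113 and 0.0955. It was also lost with no filter on low values (0.231), without trend and robust fitting (0.0537) and with the replicate block (0.149). Chga, the chromogranin A gene, was at 13.1 ± 1.17 and 18.4 ± 2.02 FPKM and did not pass (limma adjusted p = 0.112). Of 10 stem and progenitor markers 8 were tested, 7 with positive values, 6 of these with an unadjusted p under 0.05. Mcm6, a replication helicase gene, passed (0.40, limma adjusted p = 0.0477), in a call at the edge of the threshold. The Mcm6 call held without control replicate 2 (0.0422), with the filter at 5 FPKM (0.0423) and with scaling to the epithelial genes (0.0353). It was lost without any other library (limma adjusted p = 0.0829 to 0.176) and in the remaining 10 alternatives, at 0.0506 to 0.0713 under other pseudocounts, scalings and the variance model, 0.231 with no filter and 0.203 with the replicate block. Lgr5, the stem cell marker, was at 0.675 ± 0.0421 and 1.08 ± 0.0672 FPKM and Mki67 at 28.0 ± 4.88 and 38.9 ± 5.35 FPKM, neither past the test. Of the 15 colonocyte markers, all tested, 6 had positive and 9 negative values, with 2 lower at an unadjusted p under 0.05, Lypd8 and Saa1, and none past limma's adjusted test. Car1 was at 3236 to 4391 FPKM in control and 3260 to 4605 FPKM with atorvastatin, Slc26a3 at 70.2 to 88.7 and 65.3 to 99.9 FPKM and Aqp8 at 32.1 to 50.4 and 25.1 to 49.9 FPKM. Lypd8, which keeps flagellated bacteria off the epithelium, was at 4831 ± 580 and 3716 ± 474 FPKM (limma adjusted p = 0.266). Saa1, a serum amyloid A gene, was at 48.2 to 84.4 and 33.3 to 45.9 FPKM, and Car4, a carbonic anhydrase gene, at 64.3 to 142 and 46.6 to 74.8 FPKM, both at -0.61 on the log2 scale and not past the test (limma adjusted p = 0.379 and 0.509).

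The 18 leukocyte markers summed to 48.4 to 88.5 FPKM in control and 20.0 to 27.3 FPKM with atorvastatin, and the 9 tested had negative values, 8 with an unadjusted p under 0.05 and none past limma's adjusted test. Over all tested genes 12.0% had an unadjusted p under 0.05. Without control replicate 3, 3 of the leukocyte markers passed limma's adjusted test. Ptprc was at 1.15 to 1.98 and 0.688 to 1.17 FPKM and Cd3e at 0.488 to 0.956 and 0.358 to 0.409 FPKM. Among the 8 Paneth markers 3 were tested, 1 with a positive and 2 with negative values, and none passed. The Paneth list summed to 7.74 to 10.5 FPKM in control and 4.95 to 5.37 FPKM with atorvastatin. Much of that difference lay in Lyz2, which is also on the leukocyte list, at means of 2.94 and 1.15 FPKM (limma adjusted p = 0.194). Pla2g2a, a secreted phospholipase gene, was at 2.26 and 2.33 FPKM (limma adjusted p = 0.951), and Lyz1, below the filter and not tested, at 0.868 to 2.32 and 0.516 to 0.850 FPKM. None of the 9 tuft cell markers reached the filter, and Dclk1 was at 0.0463 FPKM or less. The part of these other cells in the mucus gene values was not tested.

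**Figure D4:**
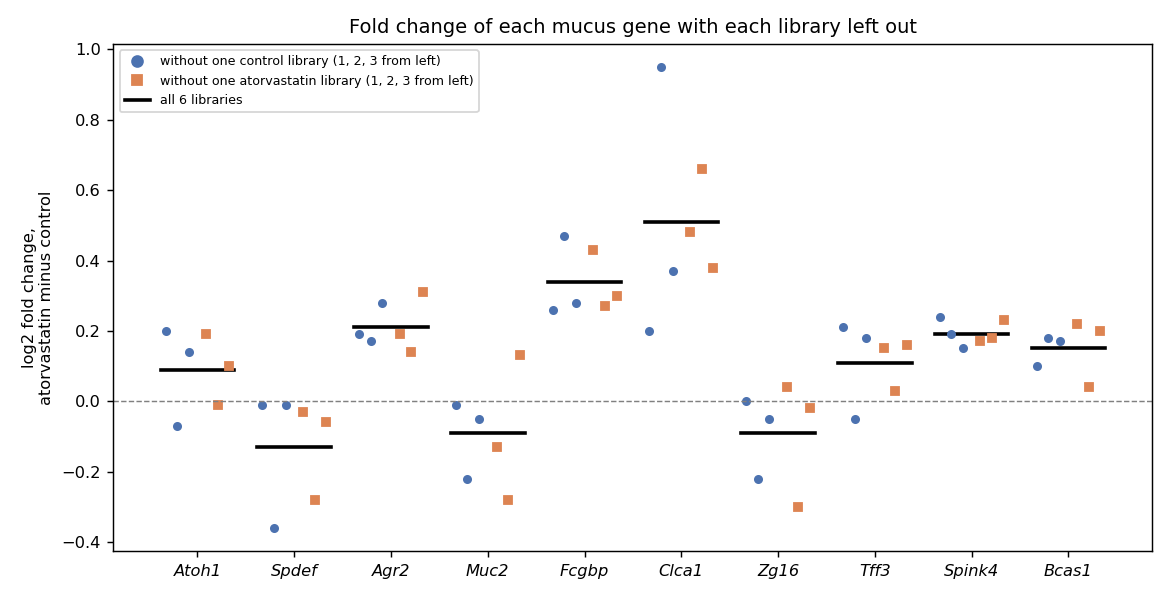
Log2 fold change of atorvastatin minus control for each mucus gene (vertical axis) with all 6 libraries (black bar), with 1 control library left out (blue circles) and with 1 atorvastatin library left out (orange squares). Clca1 runs from 0.20 to 0.95, and Muc2, Zg16, Tff3 and Atoh1 have values on both sides of 0.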

How the data were processed

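RNA of colon epithelial cells was sequenced in 3 control and 3 atorvastatin libraries. The deposited values are FPKM, 1 per gene and library; the unit was read from the values, which are not whole and whose totals differ. FastQC 0.11.2, the aligner Bowtie and the mm10 build were used, per the submitters' processing notes. The quantification tool, annotation, strand setting and handling of reads that map to several places are not given in the sources used here. Symbols came from a gene table (99.72% of identifiers named) and coordinates from GENCODE M21 on GRCm38, which mm10 denotes. Values of log2(FPKM + 1) were compared with limma 3.58.1 in R 4.3.3 (trended, robust, two-sided, Benjamini-Hochberg over all genes with 1 FPKM in at least 3 libraries), a script tested on simulated data. The members and the 14 gene lists were chosen with earlier results of these data known. Named are all members, called list genes, up to 4 list genes with the smallest p, and fixed markers; further list genes were named after their values were seen. Pseudocount, filter, scaling, variance model, replicate block and single libraries were varied.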

Additional observations from a re-analysis of the deposited data

How the results depend on the processing

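No mucus gene passed in any of the 18 alternatives, in which the members' limma adjusted p ran from 0.128 to 0.998. The median log2 fold change of the members stayed positive. It was 0.10 to 0.18 under other pseudocounts, filters, scalings, variance models and the replicate block, which use the same 6 libraries. It was 0.03 to 0.19 with a library left out. The members' median deviation from their group means had an SD of 0.16 between libraries, above the main median of 0.13. The number of members above 0 ran from 5 without control replicate 2 to 8 without atorvastatin replicate 1 or 3. With a library left out, values on both sides of 0 were seen for Muc2 (-0.28 to 0.13), Zg16 (-0.30 to 0.04), Tff3 (-0.05 to 0.21) and Atoh1 (-0.07 to 0.20). The number of genes called among all tested genes, 47, was 2 with no filter on low values, 1 with the replicate block and 2 to 67 with a library left out: 2 without control replicate 1, 30 without control replicate 2, 13 without atorvastatin replicate 1 and 17 without atorvastatin replicate 3. Of the 47 genes, 18 were higher and 29 lower, against 30 and 31 with scaling to the epithelial genes and 15 and 38 with median-ratio scaling. Same-numbered libraries deviated from their group means with correlations of -0.139, -0.106 and 0.0136 across genes. These gave no sign that the shared replicate numbers pair the libraries, though 3 libraries per group cannot exclude a pairing. Under the replicate block the median of the members was 0.13. No gene of the list of other goblet products was called in any alternative. With the sequencing depth unknown, the 3 libraries of a group give the only measure of precision.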

Other observations

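Mptx1, a mucosal pentraxin gene named after its values were seen, had the same 3 highest libraries as Clca1, though not in the same order, at 948, 2128 and 1112 FPKM in the controls and at 2834, 1541 and 2905 FPKM in the treated libraries. Control replicate 2 and atorvastatin replicates 1 and 3 were those 3, and the groups overlapped (log2 fold change 0.83, interval -0.06 to 1.72, limma adjusted p = 0.447).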
